A study of Mus musculus with 4 samples.

Results

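Tnfsf11, Tnfrsf11a and Tnfrsf11b, which encode RANK ligand (RANKL), its receptor RANK and the soluble decoy receptor osteoprotegerin, were followed across 4 single-cell libraries of synovium and lung. They were picked by gene symbol, and all 3 were found among the 32285 genes listed. RANKL is a TNF-family cytokine made by stromal cells, osteoblast-lineage cells and some lymphocytes. It binds RANK on precursors of the monocyte and macrophage lineage and, together with CSF1, drives them to become bone-resorbing osteoclasts. Osteoprotegerin binds RANKL and keeps it from RANK, so the ligand and the decoy are usually read side by side in inflamed joints.

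TNF+ mice carry 1 copy of a human TNF transgene on a C57BL/6 background and develop erosive arthritis with pulmonary vascular disease. TNF- mice are their littermates without the transgene. Mice were 4 months old, and the study used females. The labels name no other difference between the groups. Live cells were sorted after enzymatic dissociation of tissue pooled from 3 to 5 mice per genotype for lung and 5 to 10 for synovium, which gave 1 library per genotype and tissue. There are no replicates, so no p-value or standard error is given and no difference has a replicate check.

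Values are unique molecular identifiers (UMIs), 1 per captured RNA molecule, or UMIs per 1000000 UMIs of all genes in the same cells (CPM). Brackets hold 95% intervals, exact Poisson for CPM, exact binomial for shares and conditional binomial for ratios. They cover counting error only. Kept cells had 200 to 5000 detected genes, the limits of the study, and numbered 6998 in TNF- and 9174 in TNF+ lung and 6200 in TNF- and 3152 in TNF+ synovium, with median depths of 7137 to 12492 UMIs. Prg4, a lubricant gene of synovium, was at 171 and 213 CPM in the synovial libraries and at most 7.62 CPM in lung, and Sftpc, a surfactant gene, was at 1225 CPM or more in lung and at most 0.0605 CPM in synovium. Pairs of libraries shared 5 to 21 barcodes. The TNF+ synovium stood apart in that 17.6% of its barcodes were over the limit on mitochondrial UMIs, against at most 3.78% in the other 3. From TNF- to TNF+, the myeloid share of synovial cells was 10.1% and 38.7% and the mesenchymal share 58.8% and 18.7%. In lung the myeloid share was 14.1% and 53.8%, and the endothelial share 32.7% and 4.32%. Cell class names were rebuilt from marker genes, mean cells like that class, and may differ from those of the study.

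Tnfsf11 (ENSMUSG00000022015) lies on chromosome 14, 78277445 to 78308043, on the minus strand of GRCm38, with 5 exons. Tnfrsf11a (ENSMUSG00000026321) lies on chromosome 1, 105780718 to 105847981, on the plus strand, with 10 exons in its longest transcript. Tnfrsf11b (ENSMUSG00000063727) lies on chromosome 15, 54250619 to 54278484, on the minus strand, with 5 exons. No other annotated gene overlaps any of them in GENCODE vM21. All 3 are protein-coding and the counter's default settings, which the study used, count intronic reads as well as exonic ones.

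RefSeq gives a promoter window for 2 of the 3 members, and the bases upstream of their annotated starts (GRCm38.p6) are shown because ligand and receptor were both higher in the TNF+ libraries of each tissue. The Tnfsf11 stretch is chr14:78308044-78308293 on the minus strand, and the Tnfrsf11a stretch is chr1:105780473-105780672 on the plus strand. Capitals mark TATAA on either strand and GGGCGG, a GC box.
Tnfsf11: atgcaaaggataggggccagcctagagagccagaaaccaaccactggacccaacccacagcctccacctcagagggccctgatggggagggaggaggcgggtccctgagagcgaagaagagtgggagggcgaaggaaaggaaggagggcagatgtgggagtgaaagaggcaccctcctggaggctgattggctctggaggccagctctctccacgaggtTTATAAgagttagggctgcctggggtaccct
Tnfrsf11a: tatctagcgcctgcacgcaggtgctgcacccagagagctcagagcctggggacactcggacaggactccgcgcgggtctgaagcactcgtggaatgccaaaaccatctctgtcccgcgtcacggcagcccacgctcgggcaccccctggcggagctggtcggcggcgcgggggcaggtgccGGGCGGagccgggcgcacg
The Tnfsf11 stretch held TATAA starting 30 bases before the gene start, as 2 overlapping matches on opposite strands, and 4 CpG dinucleotides in 250 bases. The Tnfrsf11a stretch held no TATAA, 22 CpG dinucleotides in 200 bases and a GC content of 71.0%, against 60.4% for Tnfsf11. Among 32851 windows of 300 bases, 24.9% held TATAA and 35.7% held GGGCGG on either strand. Tnfrsf11a had 5 matches to GGGCGG over its full window and Tnfsf11 had 0.

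In whole synovium all 3 members were over 2-fold higher in the TNF+ library, where 11.8% of 19255 genes with at least 20 UMIs were (21.9% were over 2-fold lower). Tnfsf11 was at 3.77 CPM (3.34 to 4.23, 287 UMIs) in the TNF- and 9.08 CPM (8.08 to 10.2, 300 UMIs) in the TNF+ synovium, a log2 ratio of 1.27 (1.03 to 1.51). Tnfrsf11a was at 4.61 CPM (4.14 to 5.11, 351 UMIs) and 24.0 CPM (22.3 to 25.7, 792 UMIs), a log2 ratio of 2.38 (2.20 to 2.56). Tnfrsf11b was at 1.18 CPM (0.9497 to 1.45, 90 UMIs) and 2.94 CPM (2.38 to 3.58, 97 UMIs), a log2 ratio of 1.31 (0.88 to 1.74). For each gene the intervals of the 2 libraries did not overlap. With every cell weighted equally the log2 ratios were 0.77, 1.84 and 0.62, so that Tnfsf11 and Tnfrsf11b were no longer past 2-fold. In whole-tissue sums, more cells of a type and more RNA per cell cannot be told apart.

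In whole lung, ligand and receptor were higher and the decoy lower in the TNF+ library. Tnfsf11 was at 3.66 CPM (3.17 to 4.21, 197 UMIs) in the TNF- and 10.7 CPM (10.0 to 11.4, 905 UMIs) in the TNF+ lung, a log2 ratio of 1.55 (1.33 to 1.78). Tnfrsf11a was at 13.2 CPM (12.3 to 14.2, 712 UMIs) and 21.2 CPM (20.2 to 22.2, 1791 UMIs), a log2 ratio of 0.68 (0.56 to 0.81). Tnfrsf11b was at 2.92 CPM (2.48 to 3.41, 157 UMIs) and 0.320 CPM (0.211 to 0.465, 27 UMIs), a log2 ratio of -3.19 (-3.84 to -2.59). Past 2-fold, 1 member was higher, where 5.79% of 19510 genes were, and 1 was lower, where 25.5% of genes were. The median log2 ratio of all these genes was -0.32 in lung and -0.17 in synovium.

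**Figure D1:**
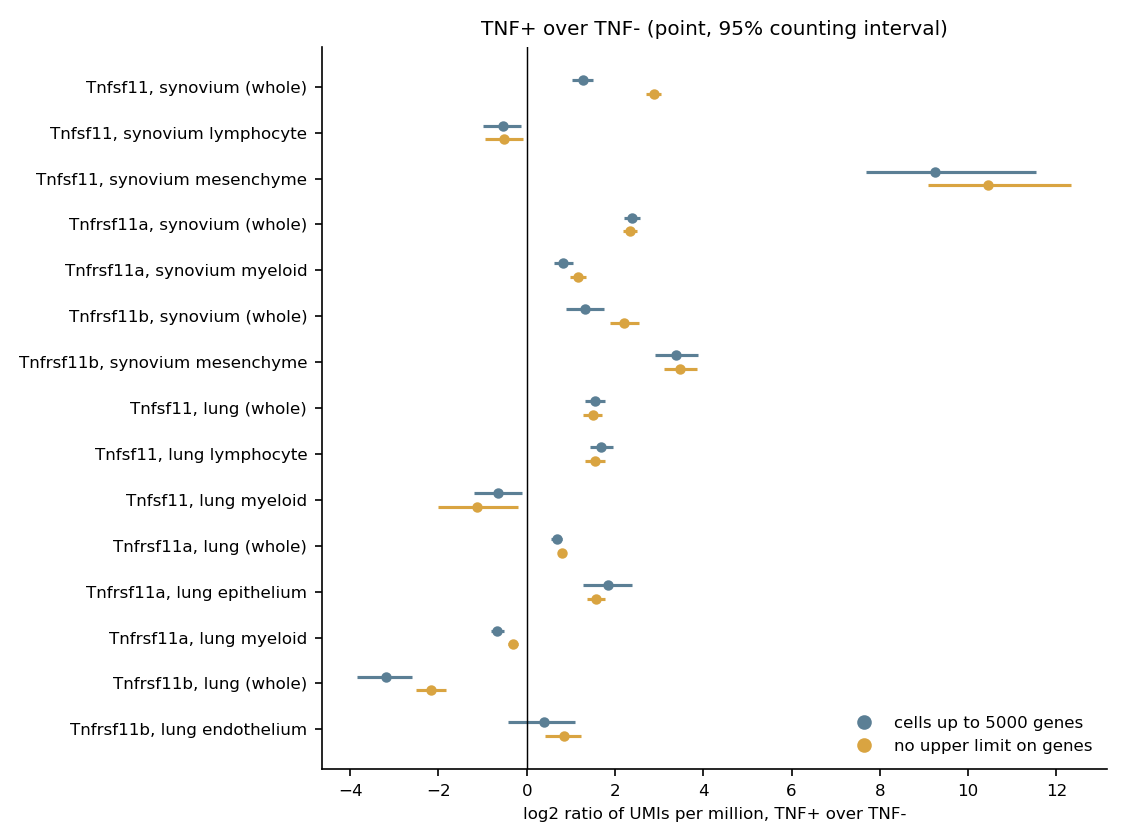
Log2 ratio of TNF+ over TNF- on the x axis for each member in whole tissues and in lineages with at least 50 cells per library and 100 UMIs, one point per setting with its 95% counting interval. Whole synovium is to the right of 0 for all 3 members, and Tnfrsf11b is at -3.19 in whole lung (cells up to 5000 genes) but at 0.39 within lung endothelium.

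Much of the signal lay in cells that the upper limit on genes removes. In the TNF+ synovium, 1036 of 1353 Tnfsf11 UMIs (76.6%) were in 346 cells with over 5000 genes, 114 of which held at least 1. In the TNF- synovium it was 59 of 346 (17.1%), in 10 such cells. Of Tnfrsf11a, cells over the limit held 64.3% of the UMIs in TNF+ lung, 59.5% in TNF- lung, 37.0% in TNF+ synovium and 25.9% in TNF- synovium. The same shares for Tnfrsf11b were 71.9%, 40.5%, 62.6% and 17.3%. The levels and ratios by library, lineage and class, and part of the pathway counts, were therefore also computed with no upper limit, a choice made after the data were seen. The groupings of T cells and of mast cells or basophils by single genes were computed within the limit only.

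**Figure D2:**
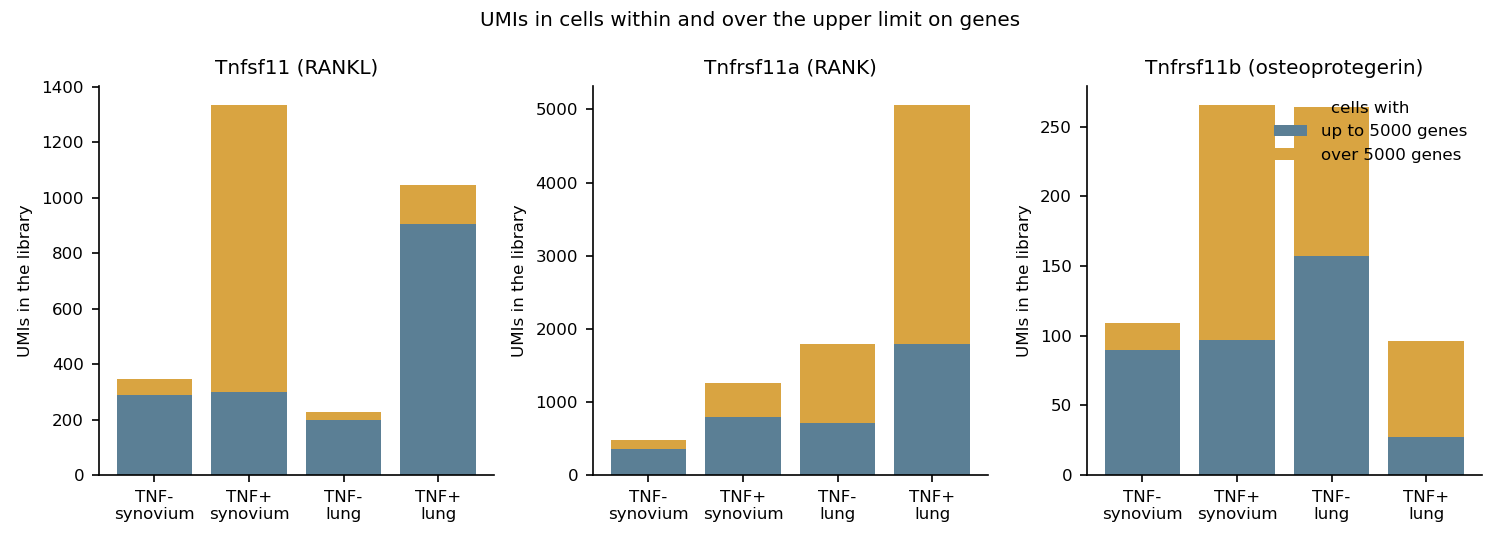
UMIs of each member (y axis) in each library, stacked by whether the cell had up to 5000 or over 5000 detected genes, among cells within the other limits. The part over the limit is largest for Tnfsf11 in the TNF+ synovium (1036 UMIs) and for Tnfrsf11a in the TNF+ lung (3277 UMIs).

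Without the limit, Tnfsf11 was at 3.84 CPM (3.45 to 4.27, 346 UMIs) in TNF- and 28.2 CPM (26.7 to 29.8, 1336 UMIs) in TNF+ synovium, so that the log2 ratio was 2.88 (2.71 to 3.05) in place of 1.27. Tnfrsf11b was at 1.21 CPM (0.994 to 1.46, 109 UMIs) and 5.62 CPM (4.96 to 6.34, 266 UMIs), with a log2 ratio of 2.22 (1.89 to 2.55). Tnfrsf11a differed little from the value with the limit, at 2.34 (2.18 to 2.49). All 3 members were again over 2-fold higher in TNF+ synovium, where 12.1% of genes were. In lung the log2 ratios without the limit were 1.49 (1.29 to 1.71) for Tnfsf11, 0.80 (0.72 to 0.88) for Tnfrsf11a and -2.16 (-2.52 to -1.82) for Tnfrsf11b, beside 5.48% of genes over 2-fold higher and 25.9% over 2-fold lower.

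The cells that held the ligand differed between the synovial libraries. In the TNF- synovium, lymphocytes held 284 of 287 Tnfsf11 UMIs (99.0%), at 70.5 CPM (62.5 to 79.2), and 3646 mesenchymal cells held 3. In the TNF+ synovium, mesenchyme held 236 of 300 UMIs (78.7%), at 35.1 CPM (30.8 to 39.9) against 0.0576 CPM (0.0119 to 0.168) in TNF- mesenchyme. That is a log2 ratio of 9.25 (7.69 to 11.54), and it rests on 3 UMIs in the TNF- library. Among 16773 genes tested in mesenchyme 9.35% were over 2-fold higher. With no upper limit, mesenchyme held 1245 UMIs in the TNF+ and 4 in the TNF- library, a log2 ratio of 10.46 (9.10 to 12.34).

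**Figure D3:**
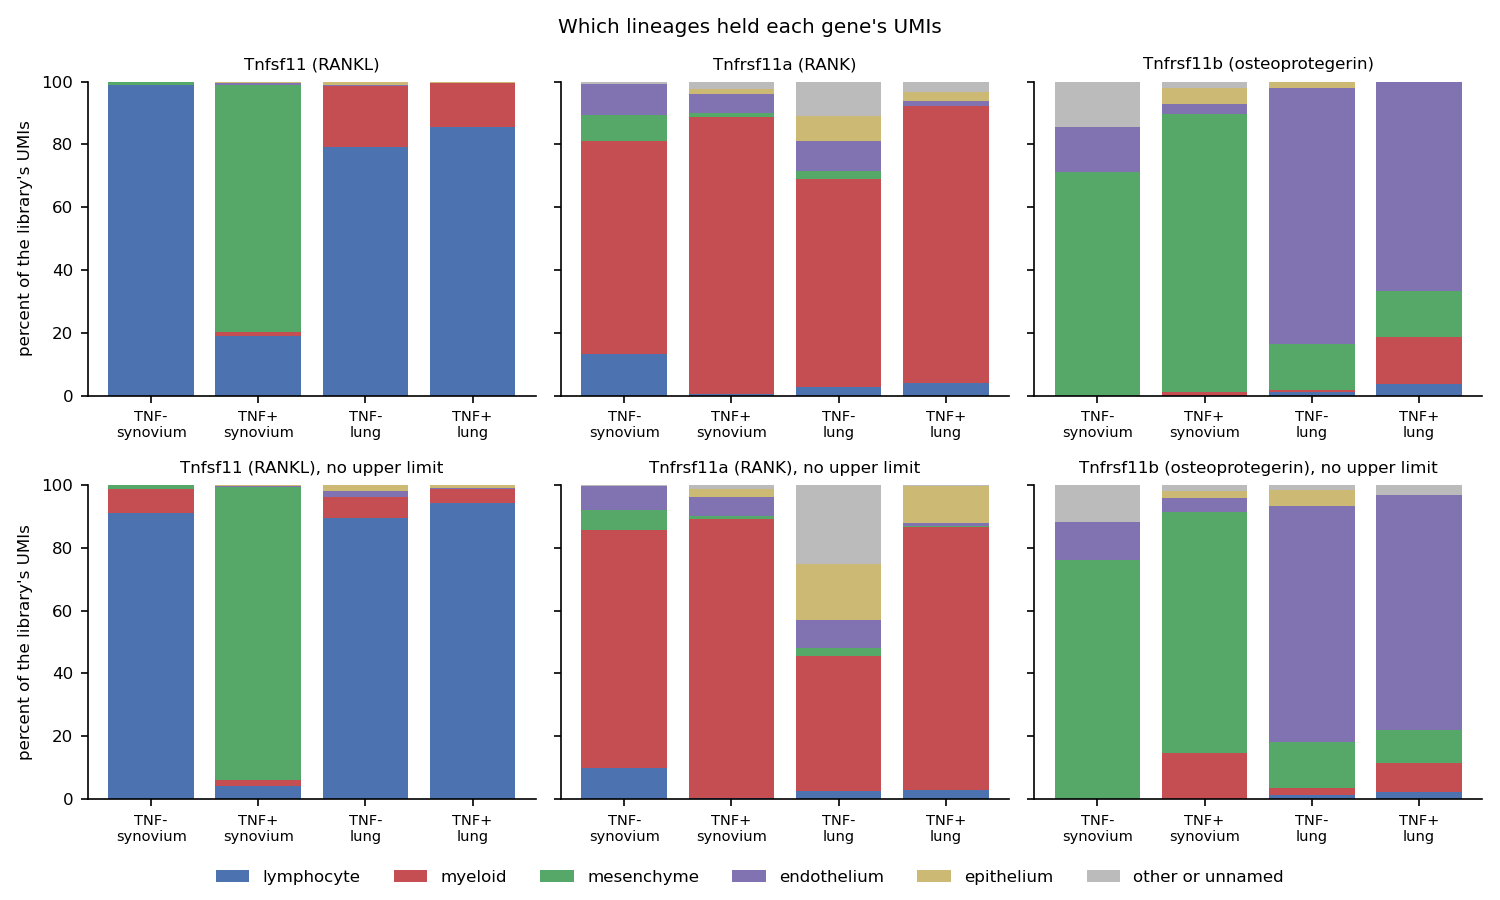
Percent of each library's UMIs of a member (y axis) held by each cell lineage, for cells up to 5000 genes (top) and with no upper limit (bottom). For Tnfsf11 the leading lineage is lymphocytes in the TNF- synovium and both lungs, and mesenchyme in the TNF+ synovium, where it holds 78.7% with the limit.

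Nearly all of the mesenchymal ligand came from 1 cluster. Its leading genes were Saa3, an acute-phase protein, Mmp13, a collagenase of bone and inflamed joints, and Cxcl5, a neutrophil chemokine, and it held 231 TNF+ and 2 TNF- cells. It carried 231 Tnfsf11 UMIs in 57 cells, at 60.9 CPM (53.3 to 69.3). It was mesenchymal by 10 of 30 fibroblast markers, but its type was not named. A cluster held almost wholly by 1 library may be that library rather than a cell type. Without clusters of 1 library, which leaves out 12 of 29 synovial clusters and 5307 cells, the log2 ratio in mesenchyme was 3.82. That value rests on very few UMIs. The left-out cluster held 231 of the 236 TNF+ mesenchymal UMIs, and TNF- mesenchyme had only 3.

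With no upper limit the same kind of cluster, led by Mmp13, Saa3 and Cxcl5, held 385 TNF+ and 2 TNF- cells and 1240 of the 1336 Tnfsf11 UMIs of the library, at 124.7 CPM (118 to 132). Ibsp, a bone matrix protein, was among its 10 leading genes. Its 150 cells over the limit had 1009 UMIs at 165 CPM, and its 235 cells within the limit had 231 UMIs at 60.6 CPM. The most in 1 cell was 44 UMIs. All 114 ligand-bearing cells over the limit in that library had a UMI of Col1a1, the main collagen of bone and tendon, 7 had a UMI of the leukocyte gene Ptprc and 0 had one of Cd3e, a T cell receptor subunit. The median Scrublet score, a doublet measure, was 0.0473 both in cells over and within the limit of this cluster. Cells over the limit had a median of 37417 UMIs and those within 17260, and the part of depth in this result was not tested.

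Named fibroblasts held little of the ligand in either library. Of 2985 such TNF- cells and 153 TNF+ cells, after thinning to 1000 UMIs each, 1 of 2980 and 0 of 150 had a Tnfsf11 UMI. In mesenchyme whose type was not named, 10 of 297 TNF+ cells (3.37%, 1.63 to 6.10) had one after thinning, and 19.5% unthinned. Macrophages or monocytes, taken as a class that should lack the ligand, had 1 of 1065 (0.0939%) in the TNF+ synovium, at a median of 13978 UMIs against 16322.

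Synovial T cells, all in 1 cluster, also carried Tnfsf11, at 125 CPM (108 to 145, 182 UMIs, 130 cells) in the TNF- and 67.1 CPM (50.8 to 87.0, 57 UMIs, 129 cells) in the TNF+ library. The log2 ratio was -0.90 (-1.35 to -0.46), and it was -0.66 (-1.11 to -0.22) with no upper limit. The make-up of this cluster differed between the libraries, with a UMI of Cd3e in 66.2% of TNF- and 44.2% of TNF+ cells and of Cd4 in 29.2% and 20.9%. Ncr1, a gene of NK cells, had a UMI in 20% of its TNF- and 8.53% of its TNF+ cells, so the cluster may not be T cells alone. The part of make-up in this ratio was not tested. After thinning, 8 of 129 TNF- and 8 of 126 TNF+ T cells had a UMI, 6.20% (2.72 to 11.9) and 6.35% (2.78 to 12.1). Thinned to 2000 UMIs the shares were 15.1% (9.33 to 22.5) and 7.83% (3.64 to 14.3), again with overlapping intervals. Among T cells with a Cd4 UMI and none of Foxp3, the level was 230 CPM (184 to 283) in 35 TNF- cells and 179 CPM (119 to 259) in 22 TNF+ cells. These intervals overlapped. T cells with a UMI of Trdc or Cd163l1 were at 171 CPM (126 to 227, 22 cells) and 71.975 CPM (35.9 to 129, 20 cells), a log2 ratio of -1.25 (-2.35 to -0.29). Those with a UMI of Cd8a or Cd8b1 had 11 UMIs at 36.0 CPM (18.0 to 64.5) and 0 UMIs, and those with one of Foxp3 had 3 and 6 UMIs at 35.3 CPM (7.27 to 103) and 103 CPM (37.9 to 225).

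A second TNF- source was a lymphocyte cluster led by Il5, Dach2 and Ccl1, with 141 TNF- and 19 TNF+ cells. It had 102 Tnfsf11 UMIs at 56.3 CPM (45.9 to 68.3) in the TNF- library. Of those TNF- cells, 97.2% had a UMI of Gata3, 95.04% of Il1rl1 and 50.4% of Il5, genes of type 2 innate lymphoid cells, and 0.709% had one of Cd3e. It had 13 of 25 T cell markers, but its type was not named because markers of another lymphocyte type outnumbered those of T cells among its leading genes. It also held 36 Tnfrsf11a UMIs, at 19.9 CPM (13.9 to 27.5), and 10 of its TNF- cells had a UMI of both ligand and receptor.

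In lung Tnfsf11 was a lymphocyte transcript in both genotypes. T cells held 155 of 197 UMIs in TNF- lung, at 16.8 CPM (14.2 to 19.6), and 771 of 905 in TNF+ lung, at 54.1 CPM (50.4 to 58.1), a log2 ratio of 1.69 (1.44 to 1.95). Of genes tested in lung lymphocytes, 6.25% were over 2-fold higher. Thinned shares pointed the same way, at 1.13% (0.566 to 2.02) of 972 and 5.13% (4.06 to 6.38) of 1482 T cells. Macrophages or monocytes had 0 of 526, which allows up to 0.570%, and 2 of 3783 (0.0529%). Thinning left out 1 and 5 T cells and 14 and 574 macrophages or monocytes, and the unthinned T cell shares were 6.69% and 23.5%.

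Most of the lung ligand sat in 1 T cell cluster, led by Il23r, Cd163l1 and Ccr4, genes of interleukin-17-producing, gamma-delta and type 2 or regulatory T cells. It held 161 TNF- cells with 124 UMIs at 79.2 CPM (65.9 to 94.5) and 845 TNF+ cells with 746 UMIs at 100.4 CPM (93.3 to 108). Within it the log2 ratio was 0.34 (0.07 to 0.63), while its cells were 161 of 973 TNF- and 845 of 1487 TNF+ T cells. With no upper limit the cluster of the same leading genes had a log2 ratio of 0.77 (0.50 to 1.04).

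T cells were next grouped by a UMI of subset genes, a grouping made after the data were seen, in which a cell can fall in several groups. Among T cells with a UMI of Foxp3, the regulatory T cell factor, Tnfsf11 was at 3.84 CPM (0.464 to 13.9, 2 UMIs, 58 cells) in TNF- and 91.1 CPM (77.1 to 107, 149 UMIs, 191 cells) in TNF+ lung. The log2 ratio was 4.57 (2.69 to 7.63), and 2 and 64 of these cells had a UMI. Among T cells with a Cd4 UMI and none of Foxp3 it was at 24.5 CPM (19.3 to 30.6, 76 UMIs) and 82.2 CPM (74.8 to 90.1, 456 UMIs), a log2 ratio of 1.75 (1.40 to 2.12). The clusters behind these groups differed in size between the libraries. In the cluster led by Il23r, Cd163l1 and Ccr4, 52.8% of 161 TNF- and 60% of 845 TNF+ cells had a Cd4 UMI. In another T cell cluster 40.8% of 665 TNF- and 41.1% of 406 TNF+ cells did. The part of make-up in the ratios of these groups was not tested.

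T cells with a UMI of Trdc or Cd163l1, genes of gamma-delta T cells, were at 30.5 CPM (18.9 to 46.7) and 64.2 CPM (52.5 to 77.7). Those with a UMI of Cd8a or Cd8b1 were the lowest of these groups, at 2.42 CPM (1.16 to 4.45) and 12.1 CPM (9.09 to 15.8). How these differences between groups of T cells compare was not tested.

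**Figure D4:**
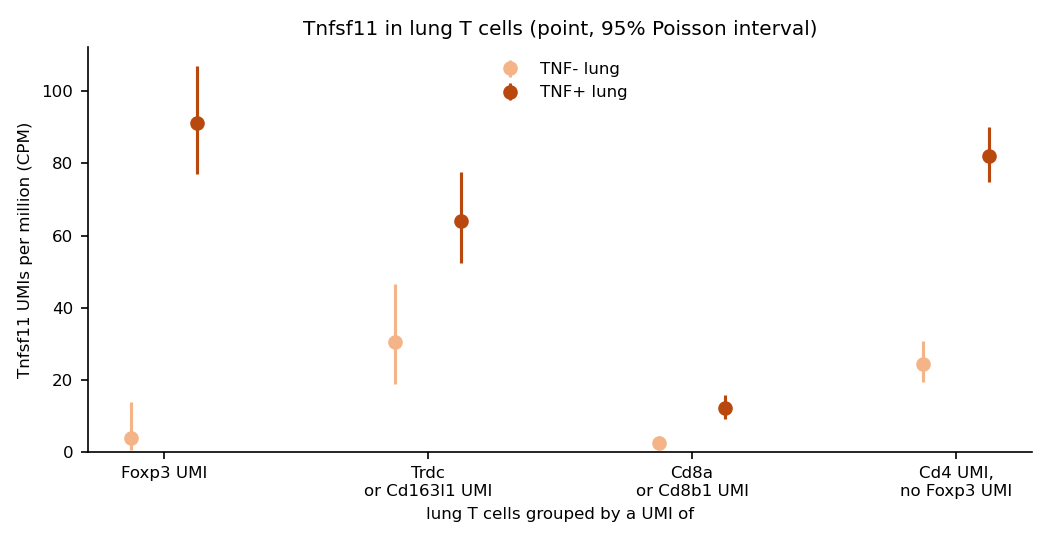
Tnfsf11 CPM (y axis) in lung T cells with a UMI of the subset genes on the x axis, for 1 TNF- and 1 TNF+ library, with 95% Poisson intervals. Cells with a Foxp3 UMI are at 3.84 and 91.1 CPM, and cells with a Cd8a or Cd8b1 UMI are the lowest, at 2.42 and 12.1 CPM.

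Most of the lung ligand outside T cells was in a cluster whose markers gave the name mast cell or basophil, with 38 UMIs in 53 TNF- and 118 UMIs in 98 TNF+ cells. The most in any other class was 8, in TNF+ macrophages or monocytes. The data went against that name for the cells that held it. Its 22 TNF- and 9 TNF+ cells with a UMI of Ms4a2, Mcpt8 or Fcer1a, genes of basophils and mast cells, had 0 Tnfsf11 UMIs. The other 31 TNF- and 89 TNF+ cells had all 38 and 118 UMIs, at 127 CPM (89.9 to 174) and 122 CPM (101 to 146), a log2 ratio of -0.06 (-0.60 to 0.51). Of the 98 TNF+ cells of the cluster, 89.8% had a UMI of Gata3 and 89.8% of Il1rl1. Finer clustering placed the same numbers of UMIs in a lymphocyte cluster of 32 TNF- and 90 TNF+ cells, so the lymphocyte share of lung Tnfsf11 is higher than the 79.2% and 85.5% that the coarser names give.

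**Figure D5:**
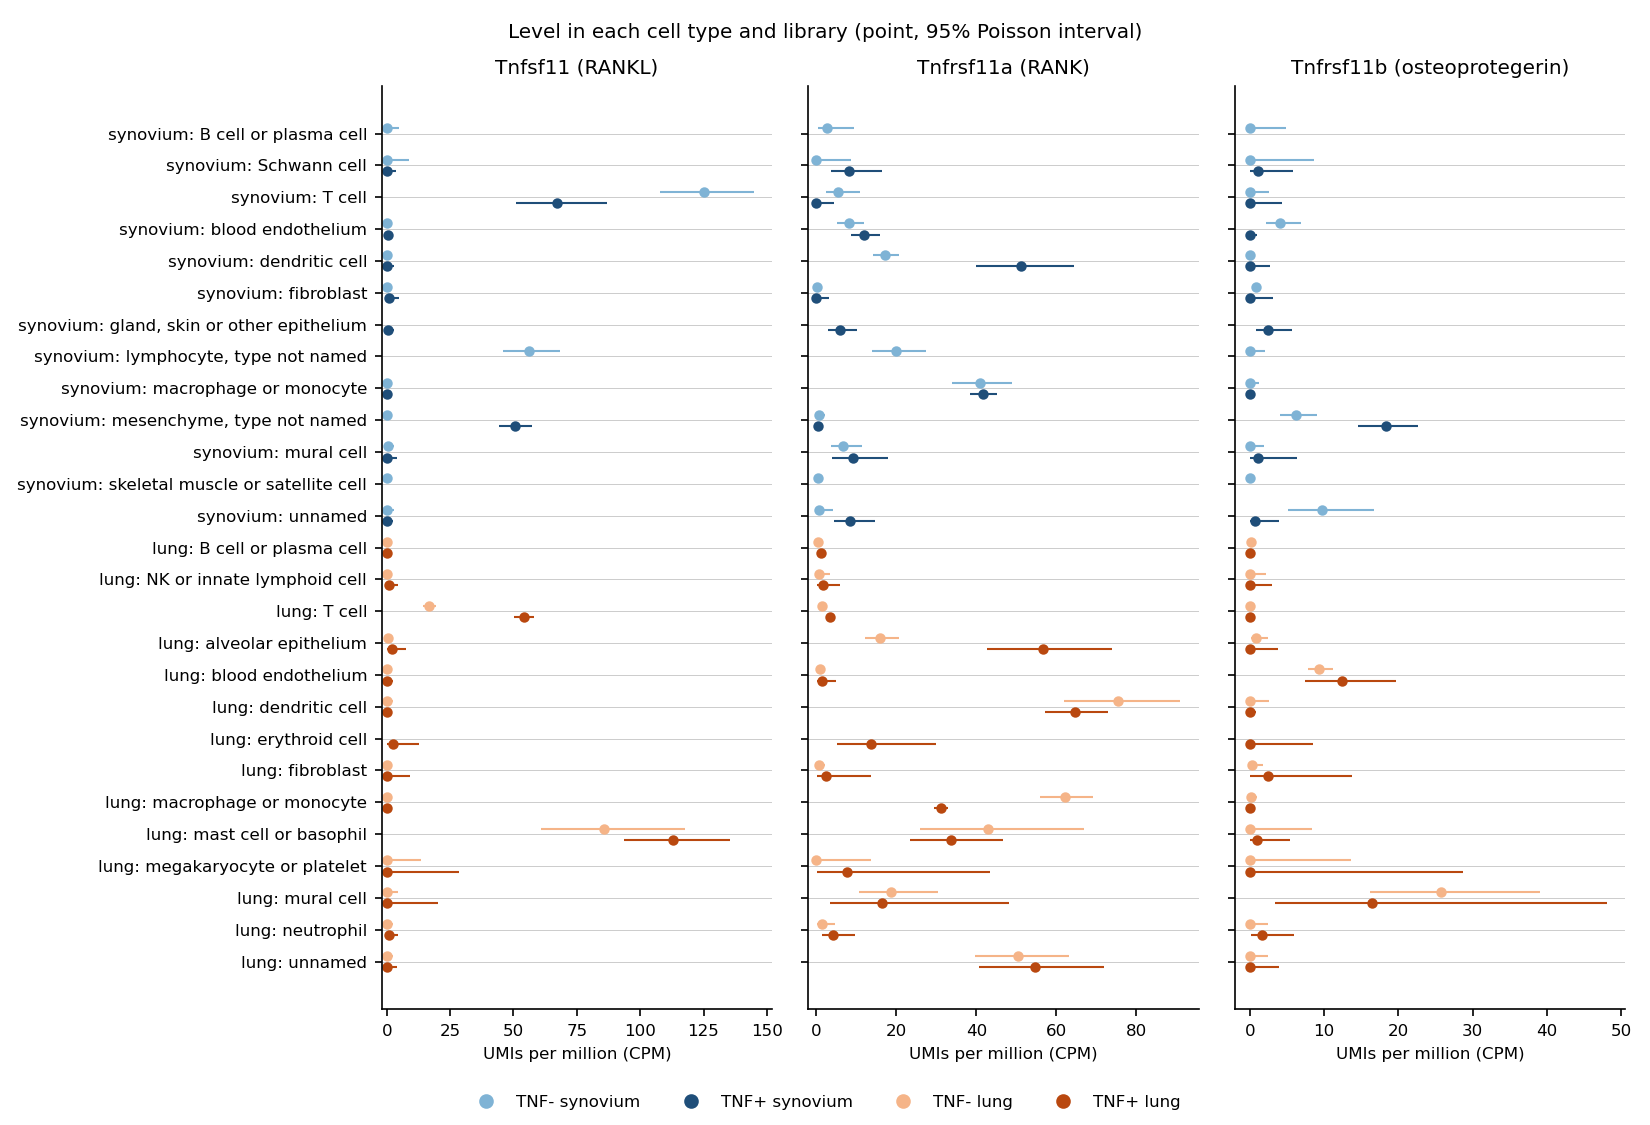
CPM of each member (x axis, own scale per panel) in every cell class with at least 50 cells in that library, as points with 95% Poisson intervals. Tnfsf11 is near 0 outside T cells, other lymphocytes, the lung cluster named mast cell or basophil and TNF+ synovial mesenchyme, while Tnfrsf11a is spread over myeloid, dendritic and alveolar cells.

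The receptor was mainly a transcript of clusters named myeloid, except in TNF- lung with no upper limit. Within the limit, myeloid cells held 68.1% of Tnfrsf11a UMIs in TNF- and 88.3% in TNF+ synovium, and 66.0% and 88.1% in TNF- and TNF+ lung. Without it they held 43.0% and 83.6% in lung. The 43.0% counts only clusters that were named myeloid. Among 736 TNF- lung cells with a receptor UMI without the limit, 431 also had a UMI of Csf1r, the CSF1 receptor gene. The part of cluster naming in this exception was not tested. The synovial myeloid level was 23.8 CPM (20.8 to 27.0, 239 UMIs) and 42.1 CPM (39.1 to 45.4, 699 UMIs), a log2 ratio of 0.83 (0.61 to 1.04), where 9.28% of 13086 genes were over 2-fold higher. With no upper limit that ratio was 1.16 (0.99 to 1.34), and with every cell weighted equally 0.36. The ratio of 2.38 in whole synovium thus stood beside a smaller one within the lineage that held most of it, whose share of cells was 10.1% and 38.7%.

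Among the synovial myeloid types the genotypes differed in dendritic cells and not detectably in macrophages. Macrophages or monocytes were at 40.9 CPM (33.9 to 48.9, 119 UMIs, 224 cells) in TNF- and 41.7 CPM (38.5 to 45.1, 629 UMIs, 1110 cells) in TNF+ synovium. The log2 ratio was 0.03 (-0.26 to 0.32). Dendritic cells, in a cluster led by Cd209a, Ccl17 and Mgl2, were at 17.2 CPM (14.2 to 20.6, 119 UMIs, 374 cells) and 51.0 CPM (39.8 to 64.5, 70 UMIs, 86 cells), a log2 ratio of 1.57 (1.12 to 2.01). Without the upper limit, where osteoclast-like cells form a cluster of their own, the ratios were -0.26 (-0.52 to 0.02) and 1.42 (0.98 to 1.84). The difference between macrophages and dendritic cells was not tested.

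The macrophage class was built from different clusters in the 2 libraries. A cluster led by Trem2, St18 and Cxcl2 held 864 of the 1110 TNF+ cells and 11 TNF- cells, and was at 46.5 CPM (42.8 to 50.3) in the TNF+ library. A cluster led by Ccl12, Ccl24 and Cd209f and rich in C1q genes held 76 TNF- cells at 85.9 CPM (68.9 to 106) and 31 TNF+ cells at 50.9 CPM (29.6 to 81.5). Nonclassical-monocyte-like cells were lower, at 7.96 CPM (4.35 to 13.4, 14 UMIs) in 137 TNF- cells and 2.98 CPM (0.967 to 6.95, 5 UMIs) in 215 TNF+ cells. After thinning, 6 of 221 TNF- (2.71%) and 32 of 1065 TNF+ (3.00%) macrophages or monocytes had a Tnfrsf11a UMI. T cells, used as the class that should lack the receptor, had 1 of 129 (0.775%) and 0 of 126, which allows up to 2.38%. Unthinned, the macrophage shares were 24.9% and 30.05%, and the T cell shares 3.10% and 0%.

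In the TNF+ synovium, cells that carried osteoclast genes had more receptor. Of synovial myeloid cells with the limit, 128 TNF+ and 1 TNF- cells had a UMI of both Acp5, the phosphatase used as an osteoclast stain, and Ctsk, the collagen-degrading protease. In the 128 cells Tnfrsf11a was at 65.9 CPM (56.5 to 76.5, 174 UMIs), against 37.6 CPM (34.5 to 41.0, 525 UMIs) in the other 1092 TNF+ myeloid cells. Median depths were 20794.5 and 13081.5 UMIs. With no upper limit it was 200 cells at 92.5 CPM (85.0 to 100.5) against 38.3 CPM (35.2 to 41.6). In TNF+ lung the same split gave 30.03 CPM (23.3 to 38.1) in 194 cells and 33.6 CPM (31.9 to 35.4) in the rest.

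Without the upper limit a cluster with 13 of 15 osteoclast markers appeared, led by Acp5, Mmp9 and Hist1h1b, with cell-cycle histone genes also among its 10 leading genes. It held 103 TNF+ cells with 503 Tnfrsf11a UMIs at 127 CPM (116 to 139), and 33 TNF- cells with 31 UMIs at 27.8 CPM (18.9 to 39.5). Only 3 TNF- synovial myeloid cells of any cluster had UMIs of both Acp5 and Ctsk without the limit, so most of those 33 lacked the pair. The ligand and the decoy in it came largely from single cells: 1 cell held 20 of the 22 Tnfsf11 UMIs, and 1 cell held 26 of the 28 Tnfrsf11b UMIs, in its TNF+ cells. Finer clustering with the limit kept gave a shallow osteoclast-like cluster of 117 TNF+ and 4 TNF- cells, at 139 CPM (115 to 168, 110 UMIs) in TNF+ cells with a median of 1419 UMIs. The synovial Mmp13 cluster without the limit had 0 Tnfrsf11a UMIs in 385 cells, and its interval ended at 0.371 CPM.

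In lung the receptor was lower per myeloid UMI in the TNF+ library although the whole tissue was higher. Myeloid cells were at 53.0 CPM (48.3 to 58.0, 470 UMIs) in TNF- and 33.4 CPM (31.8 to 35.1, 1578 UMIs) in TNF+ lung, a log2 ratio of -0.66 (-0.81 to -0.51). Without clusters of 1 library the ratio was -0.05, and without the upper limit -0.32 (-0.43 to -0.21). A nonclassical-monocyte-like cluster with 2689 TNF+ and 40 TNF- cells was at 14.9 CPM (13.5 to 16.3) in TNF+ lung, among the lowest myeloid levels.

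Within shared lung myeloid clusters the ratios pointed both ways. Macrophages led by St18, Ms4a14 and Colq, which matched markers of C1q macrophages, had the highest levels, 294 CPM (257 to 335, 227 UMIs, 62 cells) in TNF- and 140 CPM (127 to 154, 451 UMIs, 235 cells) in TNF+ lung, a log2 ratio of -1.07 (-1.30 to -0.83). Classical-monocyte-like cells were at 31.7 CPM (24.2 to 40.7) and 50.6 CPM (45.5 to 56.1), a log2 ratio of 0.67 (0.28 to 1.09). Dendritic cells were at 75.4 CPM (61.8 to 91.0) and 64.7 CPM (57.2 to 72.9), with a log2 ratio of -0.22 (-0.55 to 0.12). With no upper limit, the C1q macrophages kept a lower TNF+ level, at 269 CPM (239 to 302) and 121 CPM (115 to 128).

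Alveolar epithelium carried Tnfrsf11a as well. It was at 15.9 CPM (12.0 to 20.7, 56 UMIs, 355 cells) in TNF- and 56.7 CPM (42.7 to 73.8, 55 UMIs, 154 cells) in TNF+ lung, a log2 ratio of 1.83 (1.27 to 2.39). Nearly all of it was in 1 cluster of alveolar type 2 cells, the surfactant producers, at 20.3 CPM (15.4 to 26.4) and 71.998 CPM (54.1 to 93.9). Without the limit 446 TNF- and 254 TNF+ cells of this kind had 299 UMIs at 25.2 CPM (22.4 to 28.2) and 574 UMIs at 65.4 CPM (60.2 to 71.0), a log2 ratio of 1.38 (1.17 to 1.58). Lung epithelium was thus higher in the TNF+ library under both limits.

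Lymphatic endothelium, read from few cells, had high receptor levels. In lung it was at 189 CPM (144 to 244, 58 UMIs) in 35 TNF- cells and 431 CPM (273 to 647, 23 UMIs) in 4 TNF+ cells, and in synovium at 83.3 CPM (38.1 to 158, 9 UMIs) in 18 TNF- cells. Blood endothelium was at 0.878 CPM (0.454 to 1.53) in TNF- lung, and at 8.08 CPM (5.28 to 11.8) and 11.9 CPM (8.70 to 16.0) in TNF- and TNF+ synovium, whose log2 ratio was 0.56 (-0.17 to 1.32). An unnamed lung cluster led by Kcnip4, Htr2c and Kcnn3 was at 50.4 CPM (39.7 to 63.1) and 54.6 CPM (40.6 to 71.8). Synovial fibroblasts were at 0.261 CPM (0.135 to 0.456) in the TNF- library, and 0 UMIs in TNF+ fibroblasts allowed up to 2.52 CPM.

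The decoy was mesenchymal in synovium and endothelial in lung. Mesenchyme held 64 of 90 Tnfrsf11b UMIs (71.1%) in TNF- and 86 of 97 (88.7%) in TNF+ synovium, at 1.23 CPM (0.946 to 1.57) and 12.8 CPM (10.2 to 15.8). The log2 ratio was 3.38 (2.90 to 3.87), it was 3.48 (3.10 to 3.86) without the upper limit, and 0.29 without clusters of 1 library. The cluster led by Saa3, Mmp13 and Cxcl5 held 77 of the TNF+ UMIs, at 20.3 CPM (16.0 to 25.4). A mesenchymal cluster led by Chad, Kera and Fmod, matrix genes of cartilage and tendon, was at 6.21 CPM (4.06 to 9.10) in 366 TNF- cells. Thus the same TNF+ cluster led for both the ligand and the decoy.

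Detection of both transcripts in single cells of that cluster is limited by depth. With the limit, 57 cells had a UMI of Tnfsf11, 46 of Tnfrsf11b and 8 of both, among 231 TNF+ cells. Without it, 166, 99 and 45 of 385 cells did. In cells over the limit the decoy was at 18.8 CPM and in those within it at 19.9 CPM, where the ligand was at 165 and 60.6 CPM. Named fibroblasts had 38 decoy UMIs at 0.827 CPM (0.585 to 1.14) in the TNF- and 0 UMIs in the TNF+ library, which allows up to 2.52 CPM, so no difference was detectable.

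Lung endothelium held 128 of 157 decoy UMIs (81.5%) in TNF- and 18 of 27 (66.7%) in TNF+ lung, at 9.16 CPM (7.64 to 10.9) and 12.0 CPM (7.10 to 18.9). Within endothelium the log2 ratio was 0.39 (-0.41 to 1.10), -1.01 with every cell weighted equally, and 0.84 (0.43 to 1.23) without the upper limit. The whole-lung ratio of -3.19 thus went with an endothelial share of 32.7% of TNF- and 4.32% of TNF+ cells. TNF+ endothelial cells were shallow, with a median of 783.5 UMIs against 5569.5, and the part of depth was not tested.

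A cluster of capillary aerocytes, the thin gas-exchange endothelium, led by Tmeff2, Lmntd1 and Rgs6, had 91 of the TNF- decoy UMIs at 46.0 CPM (37.0 to 56.5) in 258 cells. An endothelial cluster led by Gm46565, Far2 and Prnd held 89 TNF+ and 4 TNF- cells and was at 13.8 CPM (7.15 to 24.2) in the TNF+ library. Mural cells were at 25.8 CPM (16.2 to 39.0, 22 UMIs) in TNF- and 16.5 CPM in TNF+ lung from only 3 UMIs, a log2 ratio of -0.65 (-3.03 to 1.09). T cells had 0 decoy UMIs in all 4 libraries.

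Ligand UMIs per decoy UMI give the balance of the pair in each library and are not a ratio of proteins. In whole libraries, make-up and level per cell cannot be told apart. In TNF- lung it was 1.25 (1.01 to 1.56) and in TNF+ lung 33.5 (22.9 to 51.1). In synovium it was 3.19 (2.51 to 4.09) in TNF- and 3.09 (2.45 to 3.93) in TNF+ libraries, whose intervals overlap. Without the upper limit it was 0.864 (0.720 to 1.035) and 10.9 (8.84 to 13.6) in lung, and 3.17 (2.55 to 3.97) and 5.02 (4.40 to 5.75) in synovium. Within synovial mesenchyme it was 0.0469 (0.00942 to 0.143) in TNF- and 2.74 (2.14 to 3.55) in TNF+ cells, or 6.10 (5.26 to 7.11) in TNF+ cells without the limit. Within the limit, most of the ligand behind the whole-synovium values was in lymphocytes in the TNF- and in mesenchyme in the TNF+ library. In lung, endothelium held most of the decoy within the limit. Its share of cells was 32.7% in TNF- and 4.32% in TNF+ lung. The part of make-up in the lung values was not tested.

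Of 68 other genes of the RANK pathway, 67 had at least 20 UMIs in synovium, and 26 were over 2-fold higher and 7 over 2-fold lower in the TNF+ library, where 11.8% and 21.9% of all genes were. Their median log2 ratio was 0.59 against -0.17 over all genes tested. Of 12 osteoclast target genes, 8 were higher and 2 lower. Acp5 was at 5.18 and 90.5 CPM, a log2 ratio of 4.13 (3.97 to 4.28), and Atp6v0d2, a proton pump subunit needed for fusion, had one of 6.89 (6.04 to 7.90). Calcr, the calcitonin receptor, which resting muscle satellite cells also express, was lower at -6.60 (-8.88 to -5.05), with 671 UMIs in the TNF- and 3 in the TNF+ library.

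Of 4 costimulators of osteoclast precursors 3 were higher, with Trem2 at 5.68 (5.49 to 5.87). Of 17 inducers of RANKL and their receptors 7 were higher and 1 lower. Osm, a cytokine that induces RANKL in stromal cells, had a log2 ratio of 2.67 (2.47 to 2.87) in whole synovium. Lif was at 1.91 (1.74 to 2.09) and Il1b at 1.96 (1.93 to 1.99), while the receptor Il1r1 was at -1.08 (-1.15 to -1.02). Within synovial myeloid cells Osm was at 0.97 (0.76 to 1.19), Il1b at 0.08 (0.05 to 0.10) and Lif at 0.25 (-0.44 to 0.98). Within synovial mesenchyme Lif was at 2.18 (1.80 to 2.54), Il1b at 1.72 (1.29 to 2.13) and Il1r1 at 0.20 (0.13 to 0.27). Among 19 signal transducers 4 were higher and 2 lower. The lower pair was the AP-1 subunits Fos and Jun, at -1.90 (-1.92 to -1.88) and -1.65 (-1.67 to -1.63). Mesenchyme held 160639 of 191661 Fos UMIs in the TNF- library. The pair was at -2.12 (-2.16 to -2.08) and -1.45 (-1.48 to -1.41) within mesenchyme. Within myeloid cells it was at -1.44 (-1.49 to -1.39) and -1.14 (-1.21 to -1.08). Whether these ratios bear on RANK signalling was not tested. Of 5 negative regulators 0 were higher and 1, Bcl6, was lower, at -1.12 (-1.21 to -1.03). Partners of RANKL or osteoprotegerin had 3 of 4 higher, among them Sdc1 at 3.82 (3.70 to 3.95), and the alternative RANKL receptor Lgr4 lower at -1.29 (-1.46 to -1.13). None of 3 measured RANKL-shedding proteases passed 2-fold in whole synovium within the limit. Without it Mmp14 did, at 1.34 (1.30 to 1.37), and within the limit it was at 1.38 (1.32 to 1.43) in mesenchyme and 5.57 (5.20 to 5.97) in myeloid cells. Of 3 genes of the CSF1 axis 1 was higher, the receptor Csf1r at 2.82 (2.76 to 2.89). Within synovial myeloid cells Csf1r was at 1.05 (0.99 to 1.12).

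In synovial myeloid cells within the limit, 9.28% of genes were over 2-fold higher and 20% over 2-fold lower. There 5 of 11 measured osteoclast target genes were higher and 1 lower, and over all lists 12 of 61 were higher and 13 lower. Without the upper limit, where 8.87% of 14389 genes were over 2-fold higher and 24.1% over 2-fold lower, 9 of 12 osteoclast target genes were higher and 2 lower. Ctsk was at 2.09 and 363 CPM within the limit and at 4.84 and 1706 CPM without it. Nfatc1, the master factor of osteoclast differentiation, had log2 ratios of 0.96 (0.78 to 1.15) and 1.88 (1.75 to 2.02). Mmp9, a matrix protease of osteoclasts, had ones of 0.73 (0.51 to 0.96) and 5.15 (4.96 to 5.35). Dcstamp, a fusion gene that dendritic cells also carry, was lower, at -2.07 (-2.33 to -1.82) within and -1.50 (-1.68 to -1.33) without the limit. Irf8, which restrains osteoclast formation, was lower too, at -1.63 (-1.76 to -1.49) and -1.82 (-1.95 to -1.70). Within the limit, dendritic cells numbered 374 out of 625 in the TNF- myeloid lineage, but 86 out of 1220 in the TNF+ one. What part this difference in make-up has in the Dcstamp and Irf8 ratios was not tested. In synovial mesenchyme without the limit, where 10.3% of 17318 genes were over 2-fold higher, 6 of 15 measured inducers and receptors were higher, against 7 of 15 within it. They included Il11 at 3.43 (3.18 to 3.67), against 2.41 (2.06 to 2.76) within the limit, Vdr at 3.71 (3.13 to 4.31) and Pth1r, the parathyroid hormone receptor, at 1.89 (1.72 to 2.06).

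In lung, 65 pathway genes were measured and 15 were over 2-fold higher and 12 over 2-fold lower, where 5.79% and 25.5% of all genes were. Their median log2 ratio was 0.35 against -0.32 over all genes tested. Il17a was at 0.818 and 3.25 CPM, a log2 ratio of 1.99 (1.53 to 2.48), and Dcstamp was higher at 3.61 (3.03 to 4.25). Osteoclast target genes had 1 of 11 higher and 1 lower, costimulators 3 of 3 higher. Without the upper limit 4 of 12 target genes were higher and 2 lower, with Acp5 at 1.49 (1.44 to 1.54) against 0.38 (0.32 to 0.45) within it and Ctsk at 1.16 (1.12 to 1.20) against 0.64 (0.52 to 0.76). In lung myeloid cells within the limit, 4.23% of genes were over 2-fold higher and 15.5% over 2-fold lower. There 5 of 11 target genes were higher and 2 lower, and of 3 costimulators 0 were higher and 0 lower. The myeloid share was 14.1% of TNF- and 53.8% of TNF+ lung cells. In whole lung, Tnfsf10 and Vwf, partners of osteoprotegerin, and Osmr were lower, at -2.78 (-2.85 to -2.70), -3.85 (-3.95 to -3.75) and -3.07 (-3.27 to -2.87). Vwf was also among the endothelial markers used for naming. The endothelial share was 32.7% of TNF- and 4.32% of TNF+ lung cells, and the part of make-up in these ratios was not tested.

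Genes with the most similar pattern were ranked by Pearson's r of log2(CPM + 1) over 45 units of cell type and library, which share libraries and depth, so r is a description. For Tnfsf11 they were Ccr8 (0.87), Tcrg-C4 (0.87), Podnl1 (0.86), Cxcr6 (0.85) and Camk4 (0.85). For Tnfrsf11a the nearest were Tmem150b (0.76), Grk3 (0.69), Syngr2 (0.67), M6pr (0.65) and Asl (0.65). Tnfrsf11b was closest to Cemip (0.76), Lmcd1 (0.75), Itga10 (0.72), Pcdhb20 (0.70) and Sh3gl2 (0.69).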

How the data were processed

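Lung and synovium were profiled by droplet-based 3' single-cell RNA sequencing, with 1 library per genotype and tissue. Per the file headers, the deposited matrices hold unnormalized UMI counts, which Cell Ranger 7.0.1 made on mm10 (GRCm38). The human transgene was not measured here. Members and gene lists were chosen with earlier results of these data known. Cells were kept with 200 to 5000 genes and at most 20% mitochondrial UMIs. The libraries of a tissue were clustered together with scanpy 1.11.5 (2000 variable genes without the members, 30 principal components, Leiden resolution 0.8). A name needed at least 5 markers at 2-fold in at least 10% of cells, and these naming thresholds were set after the data were seen. Unnamed cells were 5.24% (TNF- synovium), 8.91% (TNF+ synovium), 1.47% (TNF- lung) and 0.752% (TNF+ lung). Doublets were not removed beyond the limit on genes, and removal by Scrublet score was an alternative. Counts were summed per class and library, and a count of 0 was read against a floor of 3 UMIs. The ratio and interval code was tested on simulated data.

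Named genes were the members, the pathway lists, the 5 genes nearest each member among those with at least 200 UMIs, and the 3 leading genes of each cluster singled out. Other genes named in clusters or groups of cells (Ibsp, Col1a1, Ptprc, Cd3e, Ncr1, the T cell and basophil genes) were chosen after their values were seen. A further grouping of T cells is not reported here.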

Additional observations from a re-analysis of the deposited data

Results flagged for a closer look

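Tnfrsf11b differed in opposite directions in the whole tissues, with a log2 ratio of TNF+ over TNF- of 1.31 in synovium and -3.19 in lung. With 1 library per group, the difference between the tissues was not tested. Signal was also present in cells over the limit of 5000 genes, which the comparisons within the limit leave out, at levels above those of TNF- cells over the same limit, except for Tnfrsf11b in lung. In the TNF+ synovium these cells had 72.5 CPM of Tnfsf11 (TNF- 4.25), 32.8 CPM of Tnfrsf11a (TNF- 8.93) and 11.8 CPM of Tnfrsf11b (TNF- 1.37). In the TNF+ lung they had 1.99 CPM of Tnfsf11 (TNF- 0.745), which was below the 3.66 CPM of TNF- lung cells within the limit, and 46.0 CPM of Tnfrsf11a (TNF- 25.8). Tnfrsf11b in lung was the other way, at 0.969 CPM (0.754 to 1.23) in TNF+ and 2.57 CPM (2.11 to 3.11) in TNF- cells over the limit. Their median depths were 37600.5 and 29386 UMIs in TNF+ and TNF- synovium, and 34835 and 28743 UMIs in TNF+ and TNF- lung.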

How the results depend on the processing

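No paired analysis was possible because each group has 1 library, and no library could be left out for the same reason. The log2 ratios of TNF+ over TNF- in whole tissues and lineages stayed within their counting interval under the stricter filter on cells, removal of Scrublet doublets and Leiden resolution 1.6, wherever these gave a value. With every cell weighted equally they were 0.77 (Tnfsf11), 1.84 (Tnfrsf11a) and 0.62 (Tnfrsf11b) in whole synovium and 2.02, 1.06 and -2.38 in whole lung. Within lineages that weighting gave 2.89 for Tnfrsf11b in synovial mesenchyme, 0.36 and -0.39 for Tnfrsf11a in synovial and lung myeloid cells, 2.17 for Tnfsf11 in lung lymphocytes and -1.01 for Tnfrsf11b in lung endothelium. With no filter on cells they were 2.87 for Tnfsf11 and 2.20 for Tnfrsf11b in whole synovium, -2.16 for Tnfrsf11b in whole lung, and 1.15 and -0.31 for Tnfrsf11a in synovial and lung myeloid cells. Lifting only the upper limit on genes gave 2.88, 2.22, -2.16, 1.16 and -0.32 for the same 5. Median-of-ratios scaling gave 1.87 for Tnfsf11 and 0.999 for Tnfrsf11a in whole lung, and 4 pathway genes over 2-fold lower in synovium in place of 7. Without clusters of 1 library they were 3.82 for Tnfsf11 and 0.29 for Tnfrsf11b in synovial mesenchyme, and 0.23 and -0.054 for Tnfrsf11a in synovial and lung myeloid cells. Very few Tnfsf11 UMIs were left behind the value of 3.82. The ratio of Tnfsf11 in the lung myeloid class, -0.66 (-1.19 to -0.10), turned to 0.20 under that setting, and 156 of its 166 UMIs were in the cluster named mast cell or basophil. With each library clustered by itself the ratios were -0.84 for Tnfrsf11b in lung endothelium and -0.50 for Tnfrsf11a in lung myeloid cells. Shares of UMIs by lineage left their interval most in TNF- lung, where lymphocytes held 98.5% of Tnfsf11 at resolution 1.6 in place of 79.2%. Except where a value or the construction of the alternative shows it, the cause was not tested. Depth limits Tnfrsf11b most, with 27 to 157 UMIs per library within the limits.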
